A study of Mus musculus with 6 samples.

Results

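Retinoic acid is made from vitamin A inside cells, acts on nuclear receptors, and is broken down again close to where it was made. The 9 genes described here cover those steps, and were taken as a named set. They are the retinaldehyde dehydrogenases Aldh1a1, Aldh1a2 and Aldh1a3, the degrading enzyme Cyp26b1, the binding proteins Crabp1 and Crabp2, and the receptors Rara, Rarb and Rarg. All 9 were found among the 55416 genes of the count files, matched by gene identifier to symbol. Each library came from cells labelled oligodendrocyte precursors, isolated at postnatal day 11 from the cortices of 4 to 6 pooled mice. The 3 control samples had the genotype Pdgfra-Cre:Ift88 fl/wt; RosaEYFP and the 3 cKO samples Pdgfra-Cre:Ift88 fl/fl; RosaEYFP. All mice therefore carried a Cre driven by the promoter of Pdgfra, a growth factor receptor of these precursors, at least 1 floxed copy of Ift88, and the EYFP reporter. Ift88 serves the transport along the primary cilium that builds this organelle, and the comparison of cKO with control cells asks what changes when cilia are removed.

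In developing brain, retinal is oxidised to retinoic acid by the Aldh1a enzymes, and the leptomeninges around the cortex are a known source through Aldh1a2. Cells that express Cyp26 enzymes clear the molecule, and the Crabp proteins carry it in the cytoplasm. Its receptors bind DNA as partners of retinoid X receptors, and Rxrg is known for a role in oligodendrocyte differentiation. Rarb and Cyp26b1 are themselves switched on by retinoic acid in many tissues, so their transcripts are often read as signs of the pathway's activity.

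The depth was 11773548 to 13909236 counts in 5 libraries and 568509 in cKO replicate 2. In that library 65% of the 8241 genes with at least 20 counts in each of the other 5 had no count at all. CPM, the unit used below, is a count scaled to the total of its library. Where nothing was counted, a level of 0.216 to 0.255 CPM remained possible in the 5 deeper libraries and of 5.28 CPM in cKO replicate 2, counting error only. The targeted gene Ift88 had 143, 32 and 167 counts over control replicates 1, 2 and 3, and 1, 0 and 305 over cKO replicates 1, 2 and 3. The library labelled cKO replicate 3 thus went against its label, with more Ift88 than every control. The labels do not give the floxed exons, and tags from the transcript's end, if outside them, do not check the deletion. Groups are named by their labels throughout, and fold changes of the 8 tested genes are given without this library as well. Markers of the labelled cell type were present in part. Of 12 markers of precursors, 3 (Sox10, Gpr17 and Tnr) had no count in any library and 3 reached 20 counts in each of the 5 deeper ones. Olig1 and Olig2 were counted in the library labelled cKO replicate 3 alone. Pdgfra, whose promoter drives the Cre, had 0, 59 and 56 counts across controls against 155, 0 and 121 across cKO libraries. Neuron markers summed to 1474 to 5350.5 CPM in controls and 1631 to 5955 CPM in cKO libraries, against 234 to 487 and 7.04 to 225 CPM for the precursor markers. In such bulk samples fewer cells of a type and less RNA per cell cannot be told apart.

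The promoter of Rarb is shown because its transcript is a classical direct readout of retinoic acid. The half-site AGGTCA, in which the first base could also be G and the third also T, repeated in the same direction with 1, 2 or 5 bases between the copies, was searched on both strands in the 250 bases before each annotated start. The RefSeq table of GRCm38.p6 held 12 such windows for 7 of the 9 genes, and 1 of the 12 had a match. The match was in Rarb, in the window chr14:16575477-16575726 on the minus strand, with capitals marking the repeat spaced by 5 bases.
Rarb promoter: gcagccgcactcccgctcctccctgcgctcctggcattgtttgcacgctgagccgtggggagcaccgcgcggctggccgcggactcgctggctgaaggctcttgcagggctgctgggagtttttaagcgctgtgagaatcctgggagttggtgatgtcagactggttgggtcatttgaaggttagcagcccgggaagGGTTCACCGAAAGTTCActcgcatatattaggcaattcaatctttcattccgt
The repeat ended 36 bases before the start site. A repeat spaced by 5 bases was present in 0.0883% of all 32851 windows of this length, and any of the 3 spacings in 0.426%. A match describes the letters of the window, and the count data do not show whether a receptor was bound there.

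**Figure D1:**
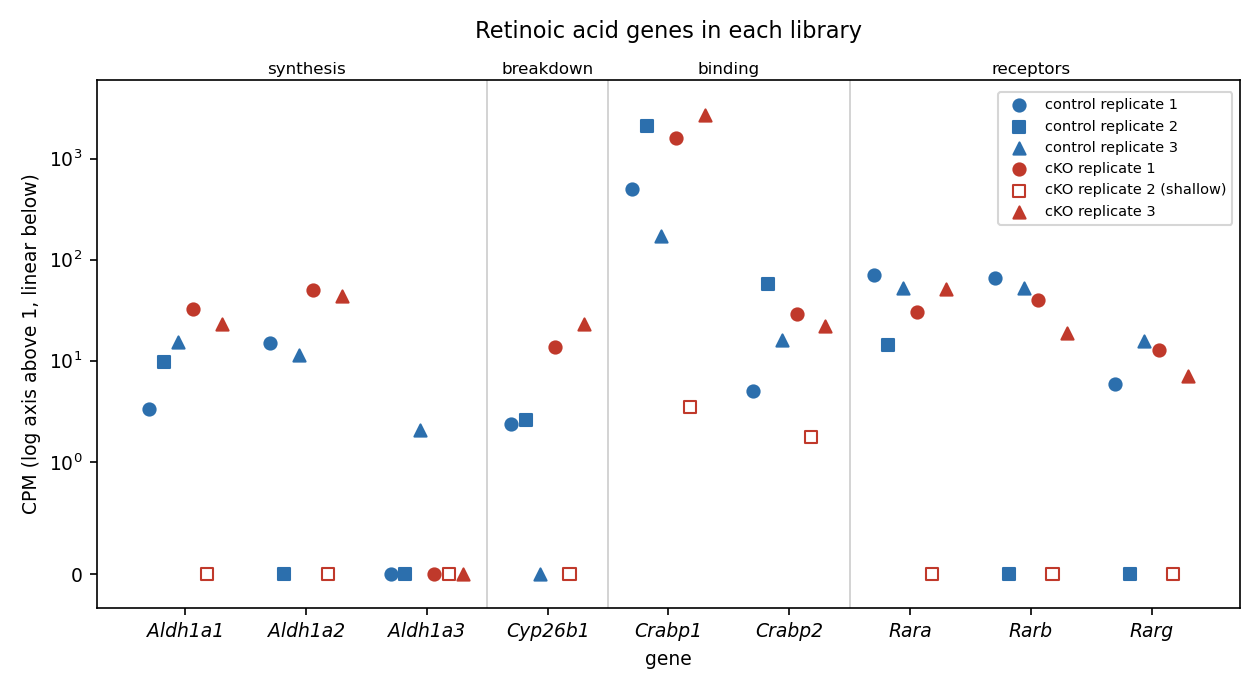
CPM of the 9 retinoic acid genes (x axis) in each of the 6 libraries, with controls in blue and cKO in red, on an axis that is logarithmic above 1 and linear below. Crabp1 lies between 173 and 2692 CPM in the 5 deeper libraries, far above the other 8 genes, and the open squares of cKO replicate 2 lie at 0 for 7 of the 9 genes.

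The genes fell far apart in level. Reads are tags from the end of the transcript, so that CPM can be set side by side between genes without a length correction. For Rarb this comparison is limited, since Top2b covers 100% of its last 500 exon bases. On this scale Crabp1 averaged 1177 CPM over the 6 libraries, followed by Rara with 36.4, Rarb with 29.5, Crabp2 with 22.0, Aldh1a2 with 20.04 and Aldh1a1 with 14.0 CPM. Rarg had 6.93, Cyp26b1 6.91 and Aldh1a3 0.344 CPM. From Rara down to Aldh1a3, each difference in mean level between neighbours was smaller than the SD of the higher gene over the 6 libraries (for Rara and Rarb, 6.94 CPM against an SD of 26.3 CPM). Between Crabp1 and Rara it was 1141 CPM against an SD of 1109.5 CPM. Crabp1 held 51.1% to 96.1% of all counts of the set in the 5 deeper libraries.

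Transcripts of the synthesis enzymes Aldh1a1 and Aldh1a2 were low in all controls and higher in both deeper cKO libraries, without passing the test. Aldh1a1 (ENSMUSG00000053279, GRCm39 chromosome 19, 20470079 to 20620829) had 45, 124 and 210 counts over control replicates 1, 2 and 3 against 454, 0 and 271 over cKO replicates 1, 2 and 3. In CPM these were 3.30, 9.72 and 15.5 across controls against 32.6, 0 and 23.0 across cKO libraries. Both deeper cKO libraries lay above every control, and the count of 0 in cKO replicate 2 allowed up to 5.28 CPM, more than control replicate 1 had. The log2 fold change of Aldh1a1 was 1.01 (SE 1.90) with all 6 libraries and 1.59 (SE 1.04) without cKO replicate 2. By edgeR's quasi-likelihood method, adjusted over all genes tested, p was 0.890 in the second case. Without the library labelled cKO replicate 3 the log2 fold change was 0.89 (SE 2.05). With all 6 libraries the adjusted p of every gene named with a fold change was 1 after rounding, and it is not repeated below.

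Aldh1a2, the main enzyme of retinoic acid synthesis in the embryo (ENSMUSG00000013584, chromosome 9, 71123071 to 71203525), had 203, 0 and 154 counts across controls against 699, 0 and 515 across cKO libraries. These were 14.9, 0 and 11.4 CPM across controls against 50.3, 0 and 43.7 CPM across cKO libraries. The cKO libraries other than replicate 2 again exceeded all controls, and control replicate 2 had no count despite its depth of 12756650. The mean CPM was 8.74 ± 7.77 over controls against 31.3 ± 27.3 over cKO samples (SD, n = 3). Leaving out cKO replicate 2 put the cKO mean at 47.0 CPM. The log2 fold change was 1.87 (SE 1.82) and 2.45 without cKO replicate 2 (SE 1.63, adjusted p = 0.903 by edgeR). It was 1.61 without the library labelled cKO replicate 3 (SE 2.06). Aldh1a3, the third enzyme, had 28 counts in control replicate 3 and 0 in the other 5 libraries, and was too low to be tested.

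Cyp26b1, which turns retinoic acid into inactive products (ENSMUSG00000063415, chromosome 6, 84548396 to 84570890), had 32, 33 and 0 counts across controls against 190, 0 and 269 across cKO libraries. Its CPM were 2.34, 2.59 and 0 across controls against 13.7, 0 and 22.8 across cKO libraries. Both deeper cKO libraries stood above all controls in this gene as well. The mean CPM was 1.64 ± 1.43 over controls against 12.2 ± 11.5 over cKO samples (SD, n = 3). Leaving out cKO replicate 2 put the cKO mean at 18.3 CPM. Its log2 fold change was the largest of the set at 2.86 (SE 2.51) with all libraries. It was 3.43 without cKO replicate 2 (SE 2.21, adjusted p = 0.884 by edgeR), and 2.12 without the library labelled cKO replicate 3 (SE 2.73). In cKO replicate 2 the count of 0 allowed up to 5.28 CPM, below the level of both other cKO libraries.

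**Figure D2:**
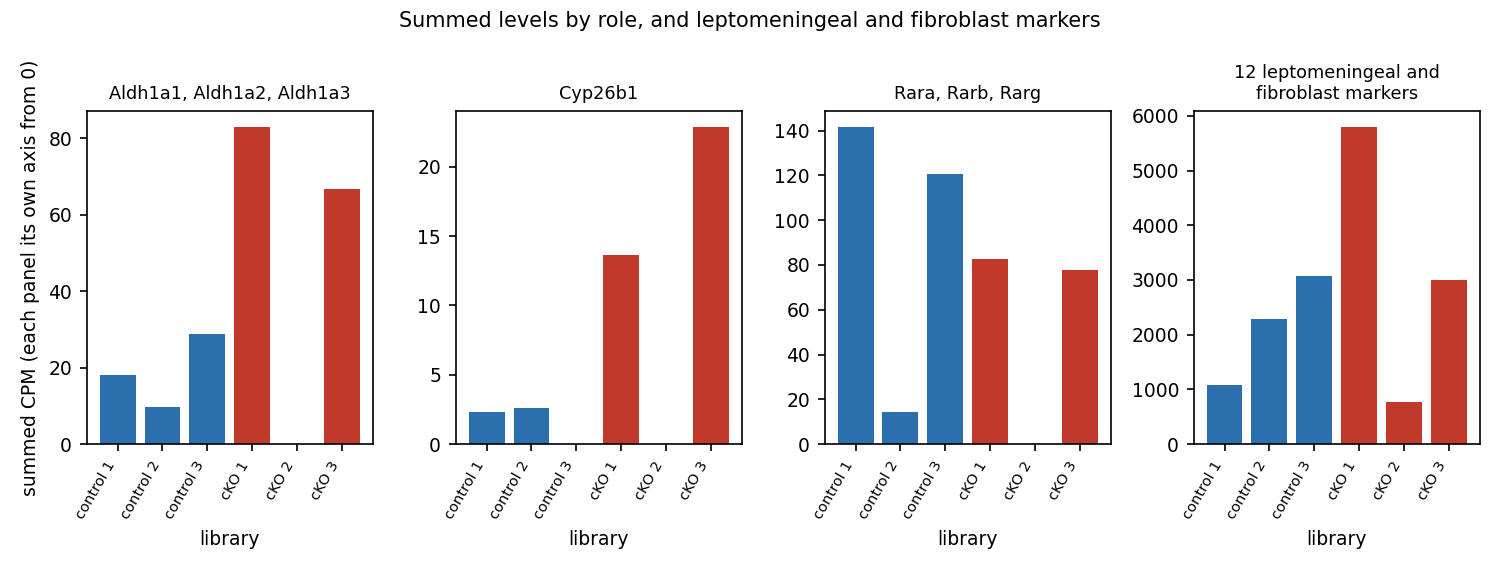
Summed CPM per library of the 3 synthesis enzymes, Cyp26b1, the 3 receptors and 12 leptomeningeal and fibroblast markers, with controls in blue and cKO in red and each panel on its own axis from 0. The synthesis enzymes sum to 9.72 to 28.9 CPM in controls and to 82.9 and 66.8 CPM in the libraries labelled cKO replicates 1 and 3, while cKO replicate 2 shows none in the first 3 panels.

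Without cKO replicate 2, the CPM of the groups did not overlap for 3 of the 8 tested genes (Aldh1a1, Aldh1a2 and Cyp26b1), with cKO higher each time, and for 0 genes with cKO lower. Of all 14562 genes tested in this comparison, 13% did not overlap with cKO higher and 12.6% with cKO lower. With all 6 libraries none of the 8 was separated in either direction, against 1.33% of 12833 genes with cKO higher and 11.1% with cKO lower. The 8 genes had 0 to 2 counts in cKO replicate 2, so that none could be separated with cKO higher. The set was proposed with earlier results of these data in view.

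Markers of leptomeningeal and fibroblast cells moved partly with the synthesis enzymes. Their 12 genes gave sums of 1083, 2293 and 3081 CPM over control replicates 1, 2 and 3 against 5789, 765 and 3007 CPM over cKO replicates 1, 2 and 3. The level was highest in cKO replicate 1, as it was for Aldh1a1 and Aldh1a2, while the sum of the library labelled cKO replicate 3 was no higher than that of control replicate 3. Gene by gene, 4 of the 11 markers tested without cKO replicate 2 lay above all controls in both deeper cKO libraries, and 0 lay below. These were Col1a2, Dcn, Foxc1 and Islr, named after their values were seen. Of the retinoic acid genes 3 of 8 lay above, and of all genes 13% lay above and 12.6% below. The log2 fold change was above 0 for 8 of the 11 markers. Dcn, a matrix proteoglycan, had 10.5, 0 and 6.12 CPM across controls against 142 and 30.7 CPM in the libraries labelled cKO replicates 1 and 3. Of the 12 markers, 6 reached 20 counts in each of the 5 deeper libraries and 0 were without a count in every library. Cdh1 was counted in control replicate 1 alone. Choroid plexus markers, 8 genes, summed to 12.97 to 211 CPM in controls and to 473 to 46487 CPM in cKO libraries. Ttr led the sum in cKO libraries and Aqp1 in controls, and Kcne2 and Kl were at 0 in all libraries. Aqp1 had 186, 56.2 and 12.7 CPM across controls against 69.9, 0 and 58.0 across cKO libraries. Of 4 choroid plexus markers tested without cKO replicate 2, 2 (Ttr and Otx2) lay above all controls and 0 below. Astrocyte markers, 8 genes, summed to 598 to 865 CPM in controls and to 575 to 682 CPM in cKO libraries. One by one, 6 of the 8 lay below all controls without cKO replicate 2 (12.6% of all genes did) and 1 lay above (13% of all genes). Their median log2 fold change was -2.87. By edgeR 0 of the 8 passed and 3 had an unadjusted p under 0.05 with cKO lower, as had 3.03% of all genes. DESeq2 with all libraries called 1, where it called 61 higher and 69 lower of all genes. Aldh1l1, Aqp4 and Mlc1 were at 0 in every cKO library. Gfap had 134, 281 and 243 CPM across controls against 44.5, 0 and 19.5 across cKO libraries. The part of leptomeningeal, choroid plexus and astrocyte cells in the levels of Aldh1a1, Aldh1a2 and Cyp26b1 was not tested.

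Crabp1 was among the more abundant genes of these libraries, and its replicates differed more than its groups. The gene, which encodes a cytoplasmic carrier of retinoic acid (ENSMUSG00000032291, chromosome 9, 54672032 to 54680394), had 6788, 26596 and 2352 counts across controls against 22437, 2 and 31690 across cKO libraries. In CPM it had 497, 2085 and 173 across controls against 1613, 3.52 and 2692 across cKO libraries. Control replicate 2 lay above cKO replicate 1, so the groups overlapped, and the highest control was 12.03 times the lowest. Crabp1 ranked 34 in control replicate 2, 38 in cKO replicate 1 and 18 in the library labelled cKO replicate 3 among all genes, but 1215 in control replicate 3. Scaled to the total of cKO replicate 2, the counts of the other libraries correspond to 98.6 to 1530 counts, where that library had 2.

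The mean CPM of Crabp1 was 918 ± 1023 over controls against 1436 ± 1353 over cKO samples (SD, n = 3). Leaving out cKO replicate 2 put the cKO mean at 2152 CPM. The log2 fold change was 0.61 (SE 2.10) and 1.21 without cKO replicate 2 (SE 0.87, adjusted p = 0.942 by edgeR). Without the library labelled cKO replicate 3 it turned to -0.16, and without control replicate 2 it was 2.08. The sum of the neuron markers was also lowest of the controls in replicate 3 (1474 CPM against 5350.5 and 4662 CPM). It stood at 5899 and 5955 CPM in the libraries labelled cKO replicates 1 and 3. Unlike Crabp1, the sum was higher in control replicate 1 than in control replicate 2. Tubb3 and Stmn2 made up most of it. Of 9 neuron markers tested without cKO replicate 2, 2 (Snap25 and Reln) lay above all controls and 2 (Gad1 and Gad2) below. Of all genes 13% lay above and 12.6% below. Gad1 had 992, 901 and 61 counts across controls and 0 in every cKO library. By edgeR 0 passed, while DESeq2 with all libraries called 1, Gad1. Of all genes DESeq2 called 61 higher and 69 lower. The part of neurons in the level of Crabp1 was not tested.

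Crabp2, the carrier that hands retinoic acid to its receptors in the nucleus (ENSMUSG00000004885, chromosome 3, 87855973 to 87860683), was much rarer. It had 69, 740 and 216 counts across controls against 405, 1 and 259 across cKO libraries, which are 5.05, 58.0 and 15.9 CPM across controls against 29.1, 1.76 and 22.0 CPM across cKO libraries. As for Crabp1, control replicate 2 was the highest control, and it was 11.5 times the lowest. The groups overlapped. The log2 fold change was -0.57 (SE 1.74), and it turned to 0.05 with upper-quartile scaling and to 0.79 without control replicate 2. It was -0.71 without the library labelled cKO replicate 3.

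The 3 receptors showed no separation of the groups. Rara, the receptor found in most tissues (ENSMUSG00000037992, chromosome 11, 98818644 to 98865768), had 953, 181 and 705 counts across controls against 426, 0 and 610 across cKO libraries. Its CPM were 69.8, 14.2 and 52.0 across controls against 30.6, 0 and 51.8 across cKO libraries. Control replicate 2 was the lowest control, and both deeper cKO libraries lay within the control range. The log2 fold change of Rara was -0.70 (SE 1.72) and -0.13 without cKO replicate 2 (SE 0.72). Without the library labelled cKO replicate 3 it was -1.47, further below 0.

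Rarb, a receptor that is also a target of the pathway (ENSMUSG00000017491, chromosome 14, 5650540 to 6038924), had 897, 0 and 719 counts across controls against 549, 0 and 219 across cKO libraries. These were 65.7, 0 and 53.0 CPM across controls against 39.5, 0 and 18.6 CPM across cKO libraries. Control replicates 1 and 3 exceeded every cKO library and control replicate 2 had none, so the groups overlapped. The log2 fold change of Rarb was -0.98 (SE 1.72) and -0.41 without cKO replicate 2 (SE 1.75), and it was -0.90 without the library labelled cKO replicate 3. Another annotated gene covers 38.4% of the exon bases of Rarb, and Top2b covers 100% of the last 500. Reads on shared bases are assigned to no gene by the counting, so the counts of Rarb are uncertain and may be too low. No other gene of the set shared exon bases with another gene.

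Rarg (ENSMUSG00000001288, chromosome 15, 102143373 to 102165952), a receptor best known from skin and skeleton, had 81, 0 and 215 counts across controls against 176, 0 and 84 across cKO libraries. In CPM it had 5.93, 0 and 15.8 across controls against 12.7, 0 and 7.13 across cKO libraries. Both deeper cKO libraries lay inside the range of the controls. Its log2 fold change of -0.05 (SE 2.35) turned positive with RLE and upper-quartile scaling and in DESeq2, and to 0.51 without cKO replicate 2, and it was -0.05 without the library labelled cKO replicate 3.

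Aldh1a2, Rarb and Rarg shared an absence in 1 control. Each had at least 20 counts in the other 4 deeper libraries and 0 in control replicate 2. This was so for 367 of 8850 genes with such counts in the other 4, or 4.15%. Cyp26b1 was absent in the same way from control replicate 3, as were 132 of 8462 genes, or 1.56%. These 2 groupings were picked after the values were seen.

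No gene of the set passed the test. By edgeR with adjustment over all genes, 0 of 8 tested genes were called with all 6 libraries and 0 of 8 without cKO replicate 2, and 0 of 8 had an unadjusted p under 0.05 in either case. Such a p was reached with cKO higher by 1.3% and with cKO lower by 1.53% of all genes with 6 libraries, and by 3.06% and 3.03% without cKO replicate 2. DESeq2 also called 0 of 8. The share of all genes called was near 0 too: 0.00779% of the 12833 genes tested with all libraries were called higher and 0.00779% lower. Without cKO replicate 2 it was 0% higher and 0.00687% lower of 14562 genes. The median log2 fold change was 0.28 over the 8 genes and -0.44 over all genes with 6 libraries, and 0.86 against -0.06 without cKO replicate 2.

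**Figure D3:**
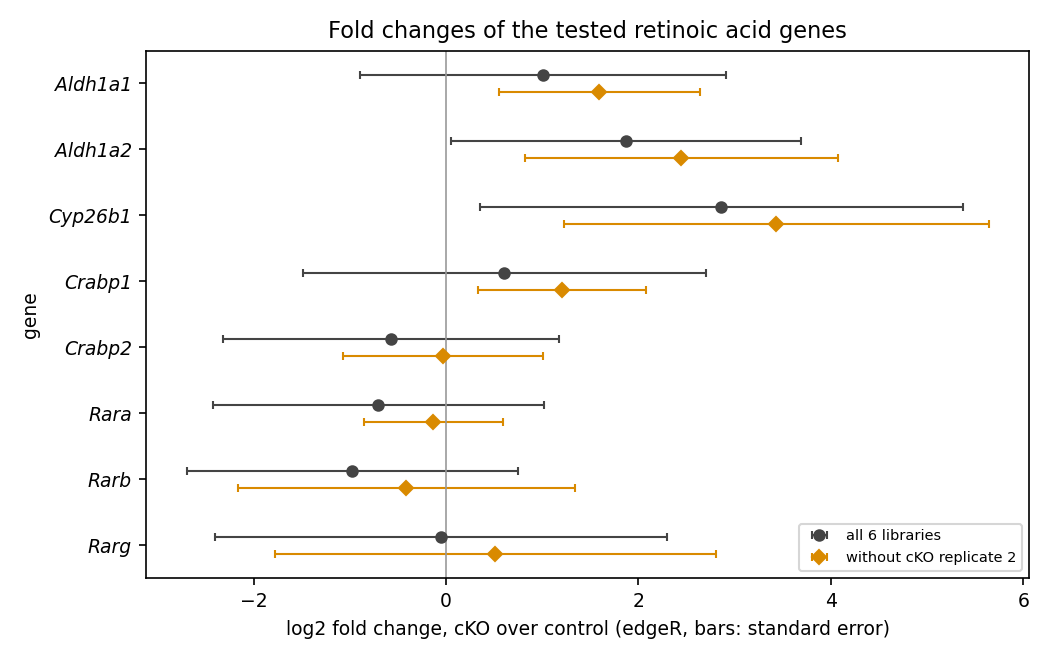
Log2 fold change of the 8 tested genes, cKO over control, with all 6 libraries (grey circles) and without cKO replicate 2 (orange diamonds), where bars are the standard error from edgeR. Aldh1a1, Aldh1a2 and Cyp26b1 lie right of 0 in both, Rara and Rarb left of 0, and no adjusted p is below 0.884.

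Of the rest of the pathway, 52 further genes in 6 lists were examined, and 9 had no count in any library. None of the 39 tested with all 6 libraries passed edgeR's test (0 with an unadjusted p under 0.05, and 0 of 38 called by DESeq2). Of 40 tested without cKO replicate 2, 0 passed and 5 had an unadjusted p under 0.05 by edgeR with cKO higher: Ttr, Rxrg, Meis2, Hoxa5 and Hoxb5. With cKO lower 0 had such a p. Of all 14562 genes, 3.06% had it with cKO higher and 3.03% with cKO lower. Meis2 was named after its value was seen. Its log2 fold change was 0.69 without cKO replicate 2 and -0.18 without the library labelled cKO replicate 3.

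Among genes that bring vitamin A into cells and store it, the transport protein gene Ttr had the widest range described here. Ttr, whose protein carries thyroid hormone and the retinol binding protein of plasma, had 25.1, 7.37 and 0.147 CPM across controls against 376, 45945 and 574 CPM across cKO libraries. All 3 cKO libraries lay above all controls for Ttr, and cKO replicate 2 lay far above the other two. Its log2 fold change was 10.38 (SE 3.83) and 5.41 without cKO replicate 2 (SE 1.38, adjusted p = 0.767 by edgeR).

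Stra6, the membrane receptor for retinol bound to its carrier, had the same order of libraries as Aldh1a1. Its counts were 15, 52 and 149 across controls against 429, 0 and 186 across cKO libraries, and the log2 fold change was 1.59 (SE 2.09). Rbp4, the plasma carrier itself, was counted in 3 libraries with 59 to 66 counts. Rbp2, Stra6l and Bco1 had no count in any library. Of the 9 genes of this list, 4 were tested with all libraries, with a median log2 fold change of 0.46.

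Among enzymes that convert retinol and retinal into each other, Dhrs3, which reduces retinal back to retinol and is induced by retinoic acid, had 6106, 423 and 14590 counts across controls against 4217, 986 and 1205 across cKO libraries. These were 447, 33.2 and 1075 CPM across controls against 303, 1734 and 102 CPM across cKO libraries, so that the shallow library was the highest of all. The fitted log2 fold change was 0.43 (SE 0.83) with all libraries and turned to -1.28 without cKO replicate 2 (SE 1.13).

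Adh5, a widely expressed alcohol dehydrogenase, had 249, 349 and 416 CPM across controls against 230, 3.52 and 223 CPM across cKO libraries. All cKO libraries lay below all controls for Adh5, as for 11.1% of all tested genes. For Adh5 the log2 fold change was -1.14 (SE 1.26) and -0.56 without cKO replicate 2 (SE 0.30, adjusted p = 0.794 by edgeR). Rdh13 had 106, 22 and 151 counts across controls against 0, 0 and 37 across cKO libraries. Rdh11 and Rdh14 had 19.8 to 72.4 and 23.9 to 30.0 CPM in controls, and 51.6 to 64.2 and 19.1 to 26.1 CPM in the libraries labelled cKO replicates 1 and 3. Over the 10 tested of 13 genes in this list the median log2 fold change was -0.43 with all libraries and -0.16 without cKO replicate 2.

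The retinoid X receptors, the DNA-binding partners of Rara, Rarb and Rarg, were led by Rxrb. Rxrb had 102, 62.8 and 133 CPM across controls against 113, 0 and 77.0 CPM across cKO libraries. Rxra had 43.7, 19.4 and 44.2 CPM across controls against 27.9, 0 and 33.97 CPM across cKO libraries. In both, the deeper cKO libraries lay within the control range. Rxrg, the partner expressed most selectively, had 62, 136 and 76 counts across controls against 237, 0 and 786 across cKO libraries, or 6.93 ± 3.27 CPM in controls (SD, n = 3) and 41.9 CPM in the libraries labelled cKO replicates 1 and 3 on average. Both of these cKO libraries exceeded the controls. Its log2 fold change was 1.996 (SE 1.87) and 2.58 without cKO replicate 2 (SE 0.95, adjusted p = 0.767 by edgeR). Without the library labelled cKO replicate 3, which had 786 of the counts, it was 0.39 (SE 2.32).

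Coregulators of the receptors passed the test in 0 of 12 cases, with a median log2 fold change of 0.15. Hdac3 of the corepressor complex had 148, 159 and 198 CPM across controls against 137, 707 and 222 CPM across cKO libraries. Tbl1xr1 of the same complex had 83.4, 73.8 and 175 CPM across controls against 109, 213 and 135 CPM across cKO libraries. For both, the shallow cKO replicate 2 was the highest library, with 402 counts of Hdac3 and 121 of Tbl1xr1. The coactivator Ncoa2 had 449, 38 and 298 counts across controls against 1402, 0 and 481 across cKO libraries. Ncoa3 had 221, 34 and 438 counts across controls against 31, 0 and 64 across cKO libraries. Sulf2 covers 30.8% of the last 500 exon bases of Ncoa3.

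Fabp5, which can carry retinoic acid to the receptor Ppard, had 2 counts in control replicate 3 and 0 elsewhere, and Cyp26c1, another degrading enzyme, had none in any library. Ppard had 79, 0 and 187 counts across controls against 97, 0 and 2 across cKO libraries. Fabp5 and Cyp26c1 were too low for a test.

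Of 16 genes known to respond to retinoic acid, 13 were tested and 0 passed, with a median log2 fold change of 0.43 with all libraries and 1.01 without cKO replicate 2. In the latter comparison 5 of the 13 had cKO libraries above all controls (against 13% of all genes), and none below. Hoxb5, a Hox gene of the hindbrain and spinal cord, had 3362, 2502 and 1811 counts across controls against 9204, 2 and 11253 across cKO libraries. Its log2 fold change was 1.48 (SE 1.06) and 2.07 without cKO replicate 2 (SE 0.35, adjusted p = 0.448 by edgeR). It was 0.84 without the library labelled cKO replicate 3 (SE 1.34). Hoxa5 had 6448, 5905 and 5379 counts across controls against 9463, 0 and 14588 across cKO libraries. Its log2 fold change of 0.52 turned to -0.33 without the library labelled cKO replicate 3. In controls Hoxa5 had 396 to 472 CPM and Hoxb5 133 to 246 CPM, although the cells were labelled as cortical. The origin of these Hox transcripts was not tested. Meis1, a Hox cofactor, had 500, 279 and 842 CPM across controls against 662, 3.52 and 650 CPM across cKO libraries, with no separation. Stra8, Cdx1 and Hoxb1 had no count in any library.

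**Figure D4:**
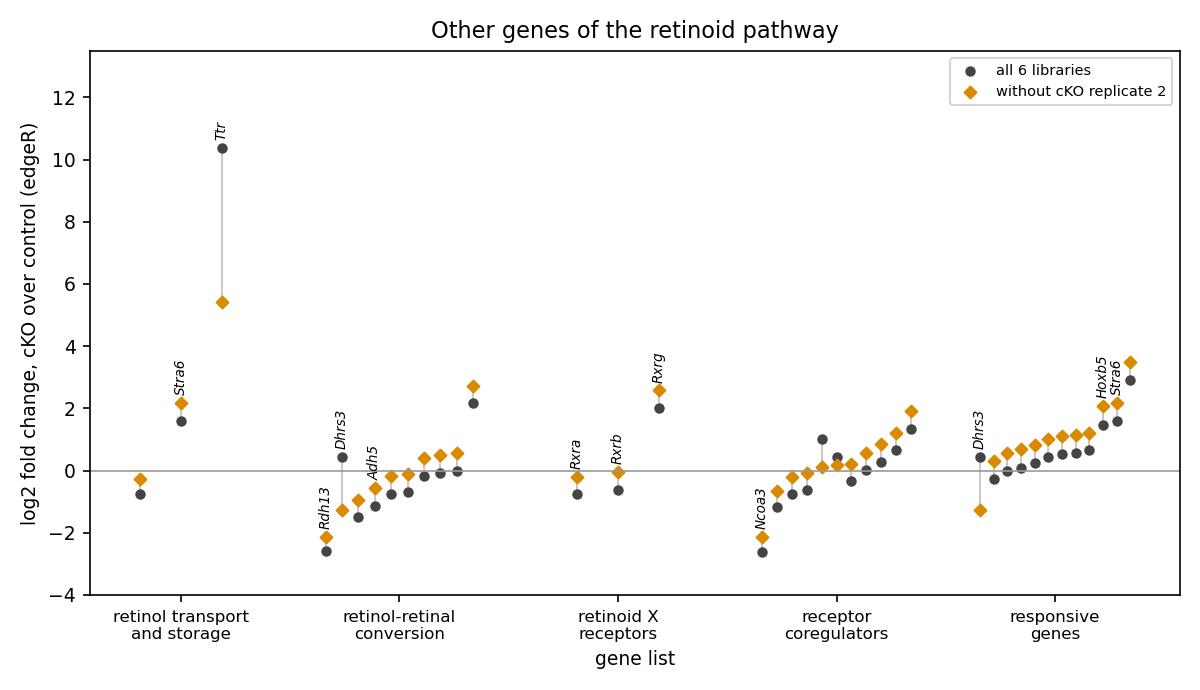
Log2 fold change of tested genes from 5 other retinoid pathway lists, cKO over control, with all 6 libraries (grey circles) and without cKO replicate 2 (orange diamonds), joined by a line for each gene. Ttr moves from 10.38 to 5.41 and Dhrs3 from 0.43 to -1.28 when the shallow library is left out, and Rxrg stays above 0 at 1.996 and 2.58.

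The genes with the profile most like each of the 3 most abundant members were found among 10091 tested genes. Likeness was the root mean square difference of log2(CPM + 1), after subtracting each gene's mean over the 6 libraries. Nearest to Crabp1 was Efnb3, an ephrin ligand, at 0.50 log2 units, with 630, 870 and 100 CPM across controls against 1003, 1.76 and 1371 CPM across cKO libraries. Rgmb at 0.66 and Ebf3 at 0.68 came next. Nearest to Rara was Wfs1 at 0.17, followed by Klhl5 at 0.20 and Rtca at 0.24. Nearest to Rarb was Glce at 0.28, with 0 CPM in control replicate 2 and cKO replicate 2 as in Rarb, followed by Uhmk1 at 0.39 and Lims1 at 0.47. Here too the counts of Rarb are limited by the exon bases shared with Top2b. All profiles share the same 6 libraries, and the low point of cKO replicate 2 is common to the 9 genes named.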

How the data were processed

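RNA was sequenced with a kit that reads a tag near the end of each polyadenylated transcript (QuantSeq 3' mRNA-Seq FWD), per the labels' protocols. The authors deposited raw counts of reads per gene, made with featureCounts 2.0.0 on exons of the Ensembl release 104 annotation of GRCm39, per the file headers. The command sets no strand option and no option for reads with several alignments or genes. Sense and antisense reads are thus not told apart. Reads on exon bases shared by genes on either strand are assigned to none, and copies lose reads. The submitters' processing notes list STAR, FastQC and DESeq2 and give them no role.

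Counts were tested with edgeR 4.0.16 in R 4.3.3 (filterByExpr, TMM, robust glmQLFit and glmQLFTest, two-sided, Benjamini-Hochberg over all genes, threshold 0.05), 3 cKO against 3 control samples. Replicates are separate pools of mice, and p-values measure the spread between pools. CPM are counts scaled to the library total, without TMM. SE is the log2 fold change divided by the root of F. Alternatives were other scalings and filters, DESeq2 1.42.0, a replicate block and leaving out each library. Symbols were found for 52083 of 55416 identifiers. Promoters came from RefSeq (GRCm38.p6), whose coordinates are not those of the counts.

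The members, lists and naming rule were chosen with earlier results of these data known. The rule named all members and, per list, the 4 genes with the highest mean CPM, the 2 with the smallest p, all retinoid X receptors and genes without a count. Of the shared pattern, 3 nearest genes were named for each of 3 members. Marker genes and Meis2 fall outside it. Of the genes it selects, 2 are not reported here.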

Additional observations from a re-analysis of the deposited data

How the results depend on the processing

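No setting called any of the genes, and the lowest adjusted p of a member was 0.581, for Aldh1a3 by edgeR without a filter on low counts. An unadjusted p under 0.05 was reached by 1 gene in each of 2 alternatives, Aldh1a3 without the filter and Crabp1 without control replicate 2. Both values of Aldh1a3 rest on 28 counts in control replicate 3, with 0 in every other library. The fold changes of Aldh1a1, Aldh1a2, Rara and Rarb kept their direction in 12 of 12 alternatives and that of Cyp26b1 in 11 of 11, since the filter of 5 CPM removed Cyp26b1. Leaving out 1 library moved Aldh1a1 from 0.31 to 1.59, Aldh1a2 from 1.27 to 2.55, Cyp26b1 from 2.12 to 3.43, Crabp1 from -0.16 to 2.08, Crabp2 from -1.15 to 0.79, Rara from -1.47 to -0.13, Rarb from -2.04 to -0.35 and Rarg from -0.92 to 1.17. Crabp2 turned to 0.051 with upper-quartile scaling. Rarg turned to 0.059 with RLE scaling, 0.30 with upper-quartile scaling and 0.047 in DESeq2. Over all genes the median log2 fold change was -0.44, and it was -0.28 with RLE, -0.01 with upper-quartile scaling and -0.11 in DESeq2, so directions near 0 depend on the scaling. Of all genes, 1 was higher and 1 lower. RLE gave 14 higher and 2 lower, upper-quartile scaling 0 and 0, DESeq2 61 and 69, no filter 22 higher and the filter of 5 CPM 2 higher, and leaving out 1 library 0 to 6 higher. The replicate numbers do not pair the samples (correlation of deviations 0.08, 0.04 and -0.01 for equal numbers). The replicate block gave 0 genes higher and 1 lower, and 0.31 for Aldh1a1, 1.84 for Aldh1a2 and 2.69 for Cyp26b1. The library of cKO replicate 2 was the shallowest, and none of the 9 genes reached 20 counts in it. Scaled to its total, the Crabp1 counts of the other libraries correspond to 98.6 to 1530, where cKO replicate 2 had 2. The same library had 26120 counts of Ttr. What lies behind its low counts of the 9 genes was not tested.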
